A study of Mus musculus with 34 samples.

Results

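Genes of insulin and insulin-like growth factor (IGF) signaling were followed in mouse cumulus cells (CCs), the somatic cells that surround the oocyte. The set comprised 10 genes chosen by symbol from the 25965 entries of the count table: the ligand Igf1, the receptors Insr, Igf1r and Igf2r, the adaptors Irs1 and Irs2, the binding proteins Igfbp2, Igfbp4 and Igfbp5, and the protease Pappa. All 10 were found, each in a single entry, and were measured in all 34 libraries. The mice were of the C57BL/6J strain, entered the protocols at 8 weeks of age and were superovulated before collection of about 50 CCs per library. In the leptin protocol, females were injected intraperitoneally for 16 days with saline (16 C, n = 3) or with recombinant mouse leptin at 100 µg per day, split over a pair of daily injections (16 L, n = 5). In the diet-induced obesity protocol, mice received chow diet (CD, 11% of energy from fat by the labels) or high-fat diet (HFD, 58%). The study's methods state slightly other fat contents, and describe the collected cells per animal where the labels name a single cumulus-oocyte complex. The diet groups were 4wk CD (n = 5), 4wk HFD (n = 5), 16wk CD (n = 6), 16wk HFD (n = 7) and 16wk HFD low weight gainers (n = 3), which were on the HFD for 16 weeks and are labelled for their small gain in weight. These are dietary and pharmacological models with no genetic change. Nothing in the labels ties replicates to separate cages or days, so p-values measure the spread between these libraries.

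As background, IGF1 and insulin bind the receptor tyrosine kinases encoded by Igf1r and Insr, which pass the signal on through the adaptor proteins IRS1 and IRS2. In the follicle, IGF1 acts with follicle-stimulating hormone to support granulosa cell growth and steroid production. IGF-binding proteins hold the ligand in the follicular fluid, and the metalloprotease PAPP-A (Pappa) releases it by cleaving IGFBP4 and, among others, IGFBP5 and IGFBP2. The receptor encoded by Igf2r carries IGF2 and mannose 6-phosphate-tagged enzymes to lysosomes and has no kinase.

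Total counts ranged from 1104611 to 13207018 per library, and levels are given as RPM, the reads of a gene scaled to the library total. The 10 markers of granulosa cells and CCs fixed for the check all had reads over the 34 libraries (summed 369 to 1535 RPM per library). Inha and Inhba had the highest medians of the list in every group. Amh was at 0 in all low weight gainers and had a median of 0 in 16 C and 16wk HFD. One library, replicate 18 of 16 L, went against its label in several of the other lists. Its granulosa cell and CC list summed to 648 RPM, within the range of 16 C (456 to 1000) and below the other libraries of 16 L (1238 to 1328). In replicate 18 of 16 L, the 6 genes of cumulus expansion summed to 3.13 RPM, against 266 to 852 RPM in the other 4 libraries of 16 L and 883 to 1405 RPM in 16 C. In the same library the 7 oviduct epithelium markers summed to 30060 RPM (other 16 L 105 to 2341, 16 C 91.1 to 101), the 2 red blood cell markers to 5196 RPM and the 6 theca and stroma markers to 1318 RPM. Muc16, Foxj1 and Wfdc2 of the oviduct list were at 0 in every library of 16 C. The fold changes and calls of the members in the leptin comparison are therefore given with and without replicate 18. The part of these transcripts in the results was not tested. Replicate 5 of 4wk HFD held 381 RPM of 8 oocyte markers, against at most 14.5 RPM elsewhere. Replicates 1 and 2 of 16wk CD had normalization factors of 1.37 and 1.33, above the other 4 libraries of that group (0.761 to 0.989), and were the highest of the group for Insr, Igf1r, Irs2, Igfbp4 and Pappa, so counts that rest on 16wk CD were also computed without both. In pooled CCs, fewer expressing cells and less RNA per cell cannot be told apart.

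**Figure D1:**
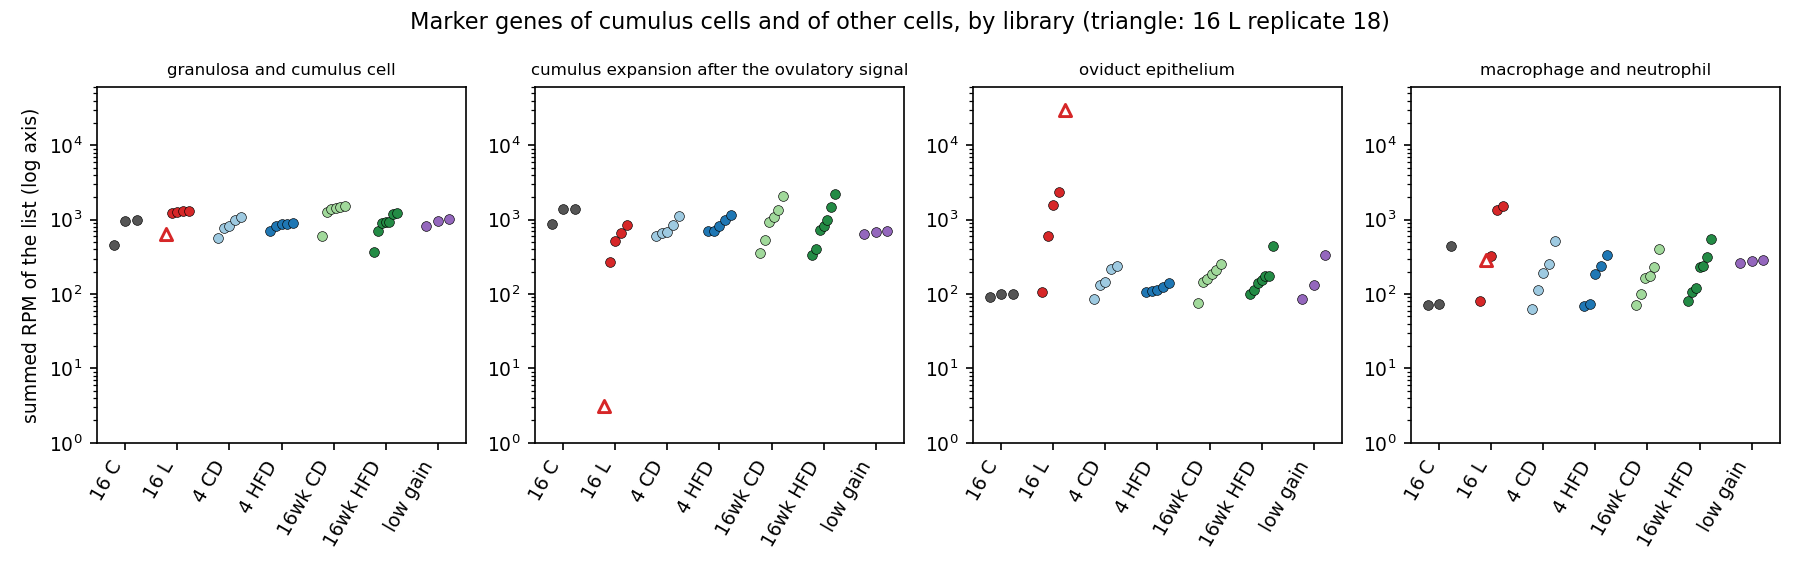
Summed RPM (log axis) of 4 marker lists in each library, by group; points are libraries and the open triangle is 16 L replicate 18. The triangle lies at 3.13 RPM for the expansion genes and at 30060 RPM for the oviduct list, apart from all other libraries in both.

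The promoters of Igfbp4 and Igf2r are shown because these were the members that passed the test in the leptin comparison, in opposite directions. Each is the 250 bases before the transcription start in RefSeq (GRCm38.p6), read 5′ to 3′ on the strand of the gene. Capitals mark matches to CCGCCC, the core of a GC box, on either strand.
Igfbp4 (chr11:99040994-99041243, plus strand): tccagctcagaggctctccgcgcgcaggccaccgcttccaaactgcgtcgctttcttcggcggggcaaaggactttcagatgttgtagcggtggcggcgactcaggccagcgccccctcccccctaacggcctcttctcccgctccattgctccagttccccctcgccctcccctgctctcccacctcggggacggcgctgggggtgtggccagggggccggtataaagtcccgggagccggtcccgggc
Igf2r (chr17:12769707-12769956, minus strand): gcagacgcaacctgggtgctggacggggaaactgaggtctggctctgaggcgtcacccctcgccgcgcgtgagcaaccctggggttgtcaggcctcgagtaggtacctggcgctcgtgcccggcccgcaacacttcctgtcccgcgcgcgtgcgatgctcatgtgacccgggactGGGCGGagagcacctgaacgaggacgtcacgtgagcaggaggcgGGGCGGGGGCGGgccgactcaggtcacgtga
Both had a GC content of 69.2%, against a median of 52.4% over 32851 promoter regions, with 22 CpG in Igfbp4 and 27 in Igf2r (median 6). The Igf2r region held 3 matches to CCGCCC and the Igfbp4 region none, whereas 32.7% of all regions held one. The STAT motif TTCNNNGAA (7.02% of all regions), the FOXO motif GTAAACA (3.17%) and the cyclic AMP response element TGACGTCA (1.55%) had no match in any member region. RefSeq regions were at hand for 8 of the 10 members, and those of Insr and Pappa were not analysed here.

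Divided by exon length, the member with the highest mean level differed between groups. It was Igfbp4 in 4wk CD (40.2 RPM per kb), 4wk HFD (33.2) and 16 L (29.7), Igf2r in 16 C (20.5), and Igf1 in 16wk CD (12.5), 16wk HFD (13) and the low weight gainers (10.1). Igfbp4 stood at 2.05 RPM per kb in 16 C and 2.04 in 16wk HFD. Averaged over all 34 libraries, Irs1 (5.94 RPM per kb), Igfbp5 (4.94), Insr (4.68), Igfbp2 (3.61) and Igf1r (3.26) lay below Igfbp4 (17.8), Igf1 (10.5) and Igf2r (8.26), and above Pappa (0.878) and Irs2 (0.493). The exon lengths came from another annotation than the counts. For Insr, Igf1r and Irs2 the gene given with the counts was shorter than in that annotation, so their levels per kb may be too low. The average of Igfbp5 rests on a single library, since replicate 18 of 16 L stood at 672 RPM and every other library at no more than 40.7 RPM. The following values are RPM, which compare groups for a gene and not genes with each other. RPM leaves out the normalization factors, which differed between groups. Over all 34 libraries these were 0.640 to 0.737 in 16 C, 0.894 to 1.32 in 16 L and 0.723 to 0.891 in 16wk HFD. They were 1.11 to 1.39 in 4wk CD and 1.11 to 1.18 in 4wk HFD. A direction between groups in RPM can thus differ from that after normalization. For Insr, 4 of 5 libraries of 16 L lay above all of 16 C in RPM, and 3 of 5 below all after normalization. The leptin and diet protocols were run apart, so a level in one cannot be told apart from its protocol when set beside the other.

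Igf1 (chr10:87858265-87937042, plus strand), the ligand, was detected in every library. Its mean was 123 ± 49.6 RPM in 16wk CD (SD, n = 6), 129 ± 26.6 in 16wk HFD (n = 7), 99.6 ± 13 in the low weight gainers (n = 3), 49.6 ± 15.5 in 4wk CD (n = 5) and 61.6 ± 27.8 in 4wk HFD (n = 5). In the leptin protocol it was 109 ± 17.5 in 16 C and 139 ± 106 in 16 L, or 95.7 ± 52.6 without replicate 18. The low group of diet libraries was thus the 4-week pair, whose ranges overlapped with that of 16wk CD. The other ligands were almost absent. Ins1 and Ins2, which encode insulin, had 0 reads in all 34 libraries, and a count of 0 allows up to 3 reads per library at 95% confidence. Igf2 had 8 reads in all, of which 5 came from replicate 18 of 16 L.

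Insr (chr8:3150922-3279617, minus strand) encodes the insulin receptor. Its levels were 113, 141, 82.2, 130.0 and 131 RPM in 4wk CD and 91.9, 75.9, 42.2, 48.9 and 46.7 RPM in 4wk HFD (replicates 13, 14, 3, 4 and 5). The lowest, median and highest values were 41.2, 63.4 and 128 RPM in 16wk CD and 31.1, 50.1 and 64.3 RPM in 16wk HFD. In the low weight gainers it stood at 47.0, 26.2 and 22.5 RPM. The 4wk CD mean was the highest of the 7 groups and the low weight gainers' the lowest, and in that order each group overlapped with its neighbour.

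Igf1r (chr7:67952859-68226780, plus strand) encodes the receptor that IGF1 binds most tightly. Group means lay between 30.1 ± 14.8 RPM in 16 C and 72.4 ± 49.0 RPM in 16wk CD, and all neighbours in the order overlapped. In 16wk CD, replicates 1 and 2 stood at 141 and 128 RPM while the other 4 lay between 28.8 and 56.6 RPM. Replicate 18 of 16 L, at 6.56 RPM, was the lowest of all libraries.

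Igf2r (chr17:12682406-12769664, minus strand), the clearance receptor, ranged most widely among the receptors. It was at 158, 199 and 216 RPM in 16 C. In 16 L it was at 106 RPM in replicate 18 and at 36.9, 40.2, 30.8 and 54.0 RPM in replicates 19, 20, 21 and 23, so the groups of the leptin protocol did not overlap. In 4wk CD it lay between 22.7 and 43.7 RPM and in 4wk HFD between 18.6 and 48.2 RPM. At 16 weeks the lowest, median and highest values were 17.8, 58.3 and 192 RPM in CD and 23.4, 112 and 205 RPM in HFD, a nearly complete overlap. The low weight gainers had 64.8, 52.0 and 37.0 RPM. The antisense gene Airn, which overlaps Igf2r, had 184 reads in all.

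Irs1 (chr1:82233101-82291416, minus strand) and Irs2 (chr8:10986980-11008458, minus strand) encode the adaptors. Irs1 means lay between 29.0 ± 18 RPM in 4wk HFD and 98.5 ± 55.7 RPM in 16 L, and replicate 18 stood at 196 RPM there against 60.1 to 94.2 RPM in the other libraries. In 4wk HFD, replicates 13 and 14 had 46.7 and 50.4 RPM of Irs1 and replicates 3, 4 and 5 had 16.3, 12.9 and 18.9 RPM, and the same 2 libraries were the highest for Insr and Pappa. Irs1 overlaps Gm9747 on the other strand (6457 reads), and the counting is not stated to use strand, so their reads cannot be told apart. Irs2 had few reads. It was at 0.559, 1.36 and 0.265 RPM in 16 C and at 0.149 RPM in replicate 18 of 16 L, against 6.75, 9.62, 5.43 and 10.3 RPM in the other libraries of 16 L. It lay between 2.37 and 5.16 RPM in the 10 libraries of the 4-week groups. In 16wk CD its values were 1.33, 9.46, 9.56, 2.79, 0 and 2.73 RPM. In 16wk HFD 3 of 7 libraries had 0 reads and the highest had 0.732 RPM, while the low weight gainers had 1.78, 2.00 and 2.03 RPM.

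Igfbp4 (chr11:99041244-99054392, plus strand), the binding protein cleaved by PAPP-A, had the widest range of group means beside Igfbp5, whose mean in 16 L rests on replicate 18. In 16 C it stood at 5.59, 15.7 and 5.84 RPM, and in 16 L at 54.9 (replicate 18), 31.1, 160.1, 186 and 223 RPM. In 4wk CD it was at 110.4, 121, 212, 322 and 123 RPM, and in 4wk HFD at 125, 86.2, 169.5, 191 and 161 RPM. In 16wk CD it was at 16.8, 103, 79.4, 21.6, 22.9 and 21.8 RPM for replicates 13, 1, 2, 5, 8 and 9. In 16wk HFD its lowest, median and highest values were 6.03, 9.60 and 11.2 RPM, and in the low weight gainers it had 14.8, 13.5 and 15.7 RPM. Saline-injected and 16wk HFD mice thus had the lowest means (9.06 ± 5.80 and 9.01 ± 1.68 RPM), below the low weight gainers (14.7 ± 1.11), 16wk CD (44.3 ± 37.3), 16 L (131 ± 83.9), 4wk HFD (147 ± 41.4) and 4wk CD (178 ± 90.3). Of the neighbours in that order, only 16wk CD and the low weight gainers did not overlap.

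Igfbp2 (chr1:72824503-72852474, plus strand) had the narrowest range of group means, between 5.52 ± 2.19 RPM in 16wk CD and 8.71 ± 6.33 RPM in 16 L, all overlapping. Igfbp5 (chr1:72857932-72874884, minus strand), its neighbour on the chromosome, was at 6.15, 19.5 and 9.28 RPM in 16 C and, beside replicate 18, at 12.1, 30.0, 40.7 and 20.5 RPM in 16 L. Its diet group means lay between 3.39 ± 0.929 RPM in 4wk HFD and 11.6 ± 10.7 RPM in 16wk CD. Pappa (chr4:65124174-65357509, plus strand) was at 2.79, 4.62 and 3.71 RPM in 16 C and at 1.49 (replicate 18), 6.63, 30.0, 9.05 and 24.5 RPM in 16 L. In 4wk CD it lay between 8.25 and 21.8 RPM. In 4wk HFD it was at 6.7, 18.7, 2.67, 0.760 and 1.48 RPM, so replicate 14 lay within the chow range and the others below it. The lowest, median and highest values at 16 weeks were 2.73, 5.98 and 29.6 RPM in CD and 1.45, 9.55 and 17.1 RPM in HFD, and the low weight gainers had 3.11, 2.50 and 0.759 RPM.

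**Figure D2:**
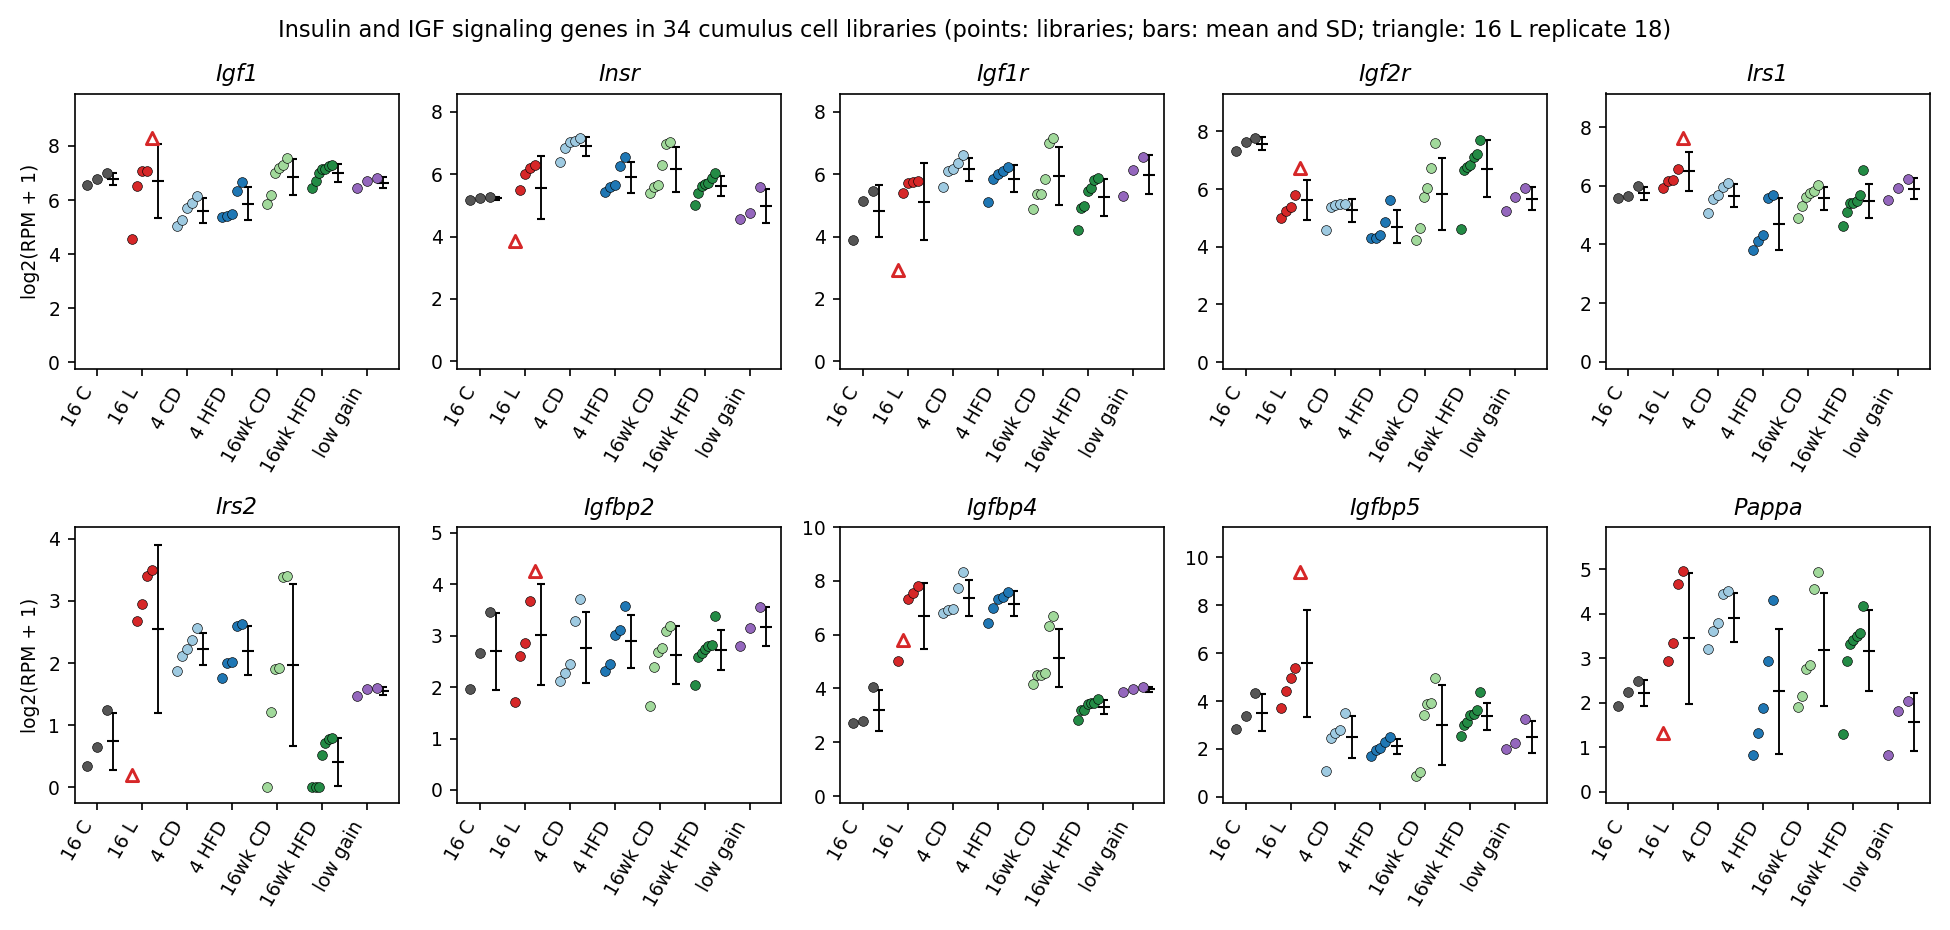
Level of the 10 genes as log2(RPM + 1) in each library, by group; points are libraries, bars are the group mean and SD, and the open triangle is 16 L replicate 18. Igfbp4 lies high in 16 L and both 4-week groups and low in 16 C and 16wk HFD, and Irs2 has 3 libraries at 0 in 16wk HFD.

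The first comparison asked which of these genes differed in CCs after 16 days of leptin. Of the 10 members, 2 passed the test, Igfbp4 upward and Igf2r downward. Igfbp4 rose by 2.89 ± 0.717 on the log2 scale (SE, edgeR quasi-likelihood adjusted p = 0.0411), and all 5 libraries of 16 L lay above all 3 of 16 C. Igf2r fell by 2.48 ± 0.556 (edgeR adjusted p = 0.0318), with all 5 below. Over all 11723 genes tested, 8.56% were called (4.06% up and 4.50% down), and 31.3% had RPM that did not overlap between the groups. The 8 other members were not called. Igfbp5 had a log2 fold change of 3.28 ± 1.60 (edgeR adjusted p = 0.185), Irs2 one of 1.97 ± 1.06 (0.225) and Pappa one of 0.96 ± 0.793 (0.419). Irs1 (0.26), Igfbp2 (-0.020), Igf1 (-0.28), Insr (-0.30) and Igf1r (-0.40) lay nearer to 0, each by less than its SE. The median over the members was 0.12, against 0.27 over all genes.

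Without replicate 18, 3 of the 10 members were called, against 41.8% of the 11077 genes then tested. Igf2r stood at -3.24 (edgeR adjusted p = 7.49e-05) and Igfbp4 at 2.88 (0.00862), and Irs2 at 2.13 ± 0.687 (0.0316). Irs2 passed the filter on low counts through 16 L, the group where it was high, so its call is a description and no support. Igfbp5 moved from 3.28 to -0.0050, so its difference rested on that library. Irs1 moved from 0.26 to -0.50 (edgeR adjusted p = 0.123) and Igf1 from -0.28 to -1.18 (0.0794), while Pappa stayed at 1.14 (0.146). In RPM, Irs1 lay at 60.1 to 94.2 in the 4 libraries of 16 L kept and at 46.4 to 63.2 in 16 C. Its direction without replicate 18 thus depends on the scaling. Igfbp2 stood at -0.87, Igf1r at -0.19 and Insr at -0.16, none of them called. Among the 4 libraries kept, the oviduct list still summed to 105 to 2341 RPM and the macrophage and neutrophil list (8 of 8 markers with reads in both groups) to 80.8 to 1544 RPM, against 71.4 to 438 RPM in 16 C. The red blood cell list summed to 2.89 to 1480 RPM in these 4 (16 C at most 10.5), the theca and stroma list to 3.02 to 67.0 RPM (at most 2.27, with Cyp17a1 and Lum at 0 in 16 C) and the oocyte list to 2.65 to 14.5 RPM (at most 1.33, with Zp1, Zp2, Zp3, Bmp15, Oosp1 and Nlrp5 at 0 in 16 C). Of the 4, replicate 19 had the lowest sums of the oviduct list (105 RPM) and the macrophage and neutrophil list (80.8 RPM), and the lowest Igfbp4 (31.1 RPM). In 16 C, replicate 2 had the highest macrophage and neutrophil sum (438 RPM) and the highest Igfbp4 (15.7 RPM). Replicate 20 had a higher macrophage and neutrophil sum than replicate 21 (1361 against 327 RPM) but less Igfbp4 (160 against 186 RPM). The part of these lists in the results was not tested.

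**Figure D3:**
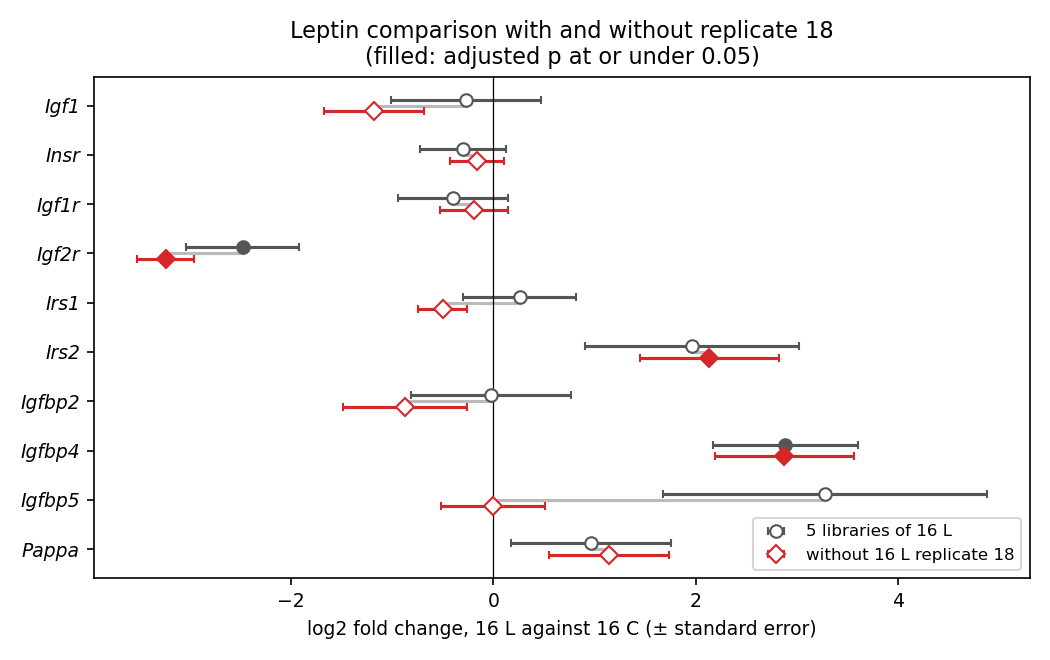
Log2 fold change of each member in 16 L against 16 C with all 5 libraries of 16 L (circles) and without replicate 18 (diamonds); bars are the standard error and filled symbols mark an adjusted p at or under 0.05. Igf2r and Igfbp4 are called in both, Irs2 only without replicate 18, and Igfbp5 moves from 3.28 to -0.0050.

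Each of the 2 calls was lost in 6 of the 8 fits that left out 1 library, namely without any 1 of the 3 libraries of 16 C or without replicate 20, 21 or 23 of 16 L. The log2 fold change stayed between -3.24 and -2.30 for Igf2r (edgeR adjusted p 7.49e-05 to 0.131) and between 2.61 and 3.70 for Igfbp4 (0.00862 to 0.181). Scaling by total counts alone moved the median of all genes from 0.27 to 1.08, and Insr, Igf1r, Igf1 and Igfbp2 then had positive values, so no direction can be given for these 4. With that scaling 3652 genes were called up and 383 down, against 476 up and 528 down with the main scaling.

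After 4 weeks of HFD, 0 of the 10 members passed the test, where 4.26% of 11727 genes did, and edgeR gave 1 member at an unadjusted p under 0.05. That member was Insr, with a log2 fold change of -0.85 ± 0.266 against 4wk CD (edgeR adjusted p = 0.0775), between -1.03 and -0.73 when any 1 library was left out. With DESeq2 and with total count scaling, 1 member was called each time. Pappa had the lowest value at -1.02 ± 0.631 (0.330) and Irs1 stood at -0.66 ± 0.377 (0.287), and in both replicates 13 and 14 were the highest of 4wk HFD. Igfbp4 stood at -0.16 ± 0.308 and Irs2 at 0.11 ± 0.371, and Igf1 had the highest value at 0.45 ± 0.313. The count over all genes fell from 499 to 8 without replicate 8 of 4wk CD and rose to 1700 without replicate 11, with 0 members called in both. No member had RPM that separated the groups, as 6.86% of genes did. The median over the members was -0.29, against -0.0099 over all genes.

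After 16 weeks, 9 members could be tested in HFD against CD and edgeR called 0, with 1 at an unadjusted p under 0.05. Over all genes, 0.0276% of 10861 were called, a count of 3 that rose to 2222 without replicate 9 of 16wk CD and to 473 without replicate 13, with 2 members and 1 member called. Igfbp4 had a log2 fold change of -1.81 ± 0.338 (edgeR quasi-likelihood adjusted p = 0.0623). Its 7 HFD libraries lay below all 6 CD libraries, a separation that 0.875% of genes had. It was called by DESeq2 (adjusted p = 0.000557), with total count scaling (edgeR, 0.0311), with no filter on low counts (edgeR, 0.0337) and with all 34 libraries in 1 fit (edgeR, 0.00496). Without replicates 1 and 2 of 16wk CD, the value was -1.04 (edgeR adjusted p = 0.290). The other members tested lay between -0.42 ± 0.30 (Igf1r) and 0.85 ± 0.560 (Igf2r). The median over the members tested was 0.14, against -0.049 over all genes. Irs2 failed the filter on low counts, and its mean log2(RPM + 1) was lower by 1.57 in HFD (0.40 against 1.97, exact two-sided permutation test, p = 0.0163, smallest p possible 0.00117), or by 2.82 with a pseudocount of 0.1 (exact permutation p = 0.0326). With replicates 1 and 2 of 16wk CD left out, that difference was -0.86 (exact permutation p = 0.0848). This was 1 of 2 such tests, and the p-values are unadjusted.

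The low weight gainers were compared with the 16wk HFD mice, which ate the same diet for the same time. The label of the low weight gainers names an outcome and not a treatment. Weight gain and any other difference between these mice therefore cannot be told apart. Of 9 members tested, 2 passed, both downward, while 20.7% of 11258 genes did (10.8% up and 9.93% down). Pappa fell by 2.20 ± 0.556 (edgeR adjusted p = 0.0122) and Insr by 0.78 ± 0.248 (0.0354). In both, the groups overlapped in RPM. Pappa passed the filter on low counts through 16wk HFD, the group where it was high, so its call is a description and no support. The share of members called was close to that of all genes. The median over the members was -0.57, against -0.030 over all genes, a difference that was not tested. Igf2r, at -1.42 ± 0.528 (0.0739), Igfbp5, at -1.07 ± 0.436 (0.0857), Igf1, at -0.57 ± 0.260 (0.120), and Igfbp4, at 0.52 ± 0.247 (0.135), were at an unadjusted p under 0.05 only. Igf1r (0.55), Igfbp2 (0.38) and Irs1 (0.19) were not. The 3 low weight gainers lay above all 7 HFD libraries for Igfbp4 and Irs2, as 18.5% of genes lay apart in either direction. Irs2 failed the filter here too and differed by 1.15 in mean log2(RPM + 1) (1.55 against 0.40, exact two-sided permutation test, p = 0.0167, the smallest that 3 against 7 libraries allow), or by 2.72 with a pseudocount of 0.1. The Pappa call was lost without replicate 23 of the low weight gainers (-1.80, edgeR adjusted p = 0.0868). The Insr call was lost without replicate 14 or 16 of 16wk HFD or replicate 22 or 23 of the low weight gainers (largest edgeR adjusted p = 0.233). Neither call held with all 34 libraries in 1 fit (edgeR adjusted p = 0.137 for Pappa and 0.214 for Insr), and that of Insr did not hold with total count scaling (edgeR, 0.113).

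Against 16wk CD, 0 of the 10 members were called in the low weight gainers, and edgeR gave 3 at an unadjusted p under 0.05, with 0.00861% of 11620 genes called. This comparison shares the low weight gainers with the previous one. The 3 were Pappa at -2.03 ± 0.745 (edgeR adjusted p = 0.365), Igfbp4 at -1.25 ± 0.482 (0.377) and Insr at -1.01 ± 0.358 (0.354). Igfbp4 was below all 6 CD libraries in each of the 3, as 6.93% of genes were apart. DESeq2 called 0 members. The median over the members was -0.69, against -0.076 over all genes, a difference that was not tested. Without replicates 1 and 2 of 16wk CD, the values were -0.99 for Pappa, -0.51 for Igfbp4 and -0.73 for Insr.

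**Figure D4:**
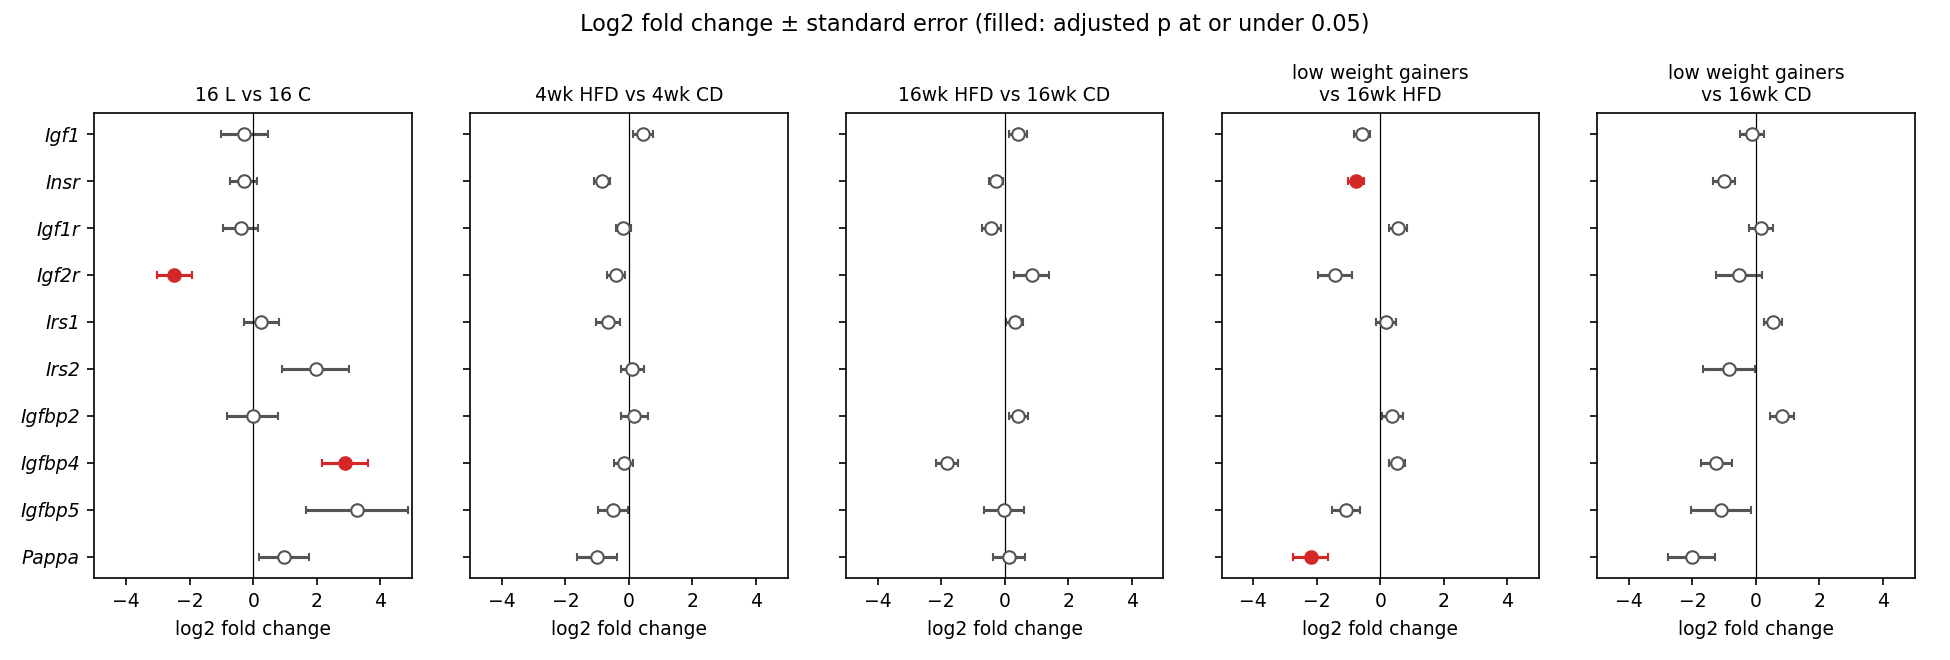
Log2 fold change with standard error of each member in the 5 comparisons between groups; filled symbols mark an adjusted p at or under 0.05 and a missing symbol a gene not tested. Igf2r and Igfbp4 are filled in the leptin comparison, Insr and Pappa in the low weight gainers against 16wk HFD, and none in the other 3. Pappa passed the filter on low counts through 16wk HFD, where it was high.

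The diet effect at 16 weeks was set against that at 4 weeks by an interaction term. Of the 10 members, 1 was called, Igfbp4, whose HFD effect was lower by 1.55 ± 0.451 on the log2 scale at 16 weeks (edgeR adjusted p = 0.0496), where 3.66% of 12235 genes were called (1.74% up and 1.92% down). The effects themselves were -0.16 at 4 weeks and -1.81 at 16 weeks in their own fits. The call was lost in 15 of 23 fits with 1 library left out (edgeR adjusted p 0.0224 to 0.0959), with all 34 libraries in 1 fit (edgeR, 0.0869), and without replicates 1 and 2 of 16wk CD (-0.92, edgeR adjusted p = 0.195). Irs2 stood at -2.88 ± 0.877 (edgeR adjusted p = 0.0551), Irs1 at 1.07 ± 0.470 (0.165) and Insr at 0.69 ± 0.335 (0.212), all at an unadjusted p under 0.05. The median over the members was 0.42, against -0.086 over all genes, a difference that was not tested. Time on diet, age and any difference in handling between the 4-week and 16-week mice cannot be told apart.

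Igfbp4 and Igf2r are shown against each other because they moved in opposite directions after leptin. The 3 libraries of 16 C had Igf2r of 158 to 216 RPM with Igfbp4 of at most 15.7 RPM. The libraries of the 4-week groups had Igf2r of at most 48.2 RPM with Igfbp4 of at least 86.2 RPM. In 16wk HFD, replicate 6 had little of both (Igf2r 23.4 RPM, Igfbp4 9.88 RPM), and in 16wk CD replicates 5 and 8 had Igf2r of 23.9 and 17.8 RPM with Igfbp4 of 21.6 and 22.9 RPM. With the group means removed, as described below, Pearson's r of the pair was -0.110, and -0.072 without replicate 18 of 16 L.

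**Figure D5:**
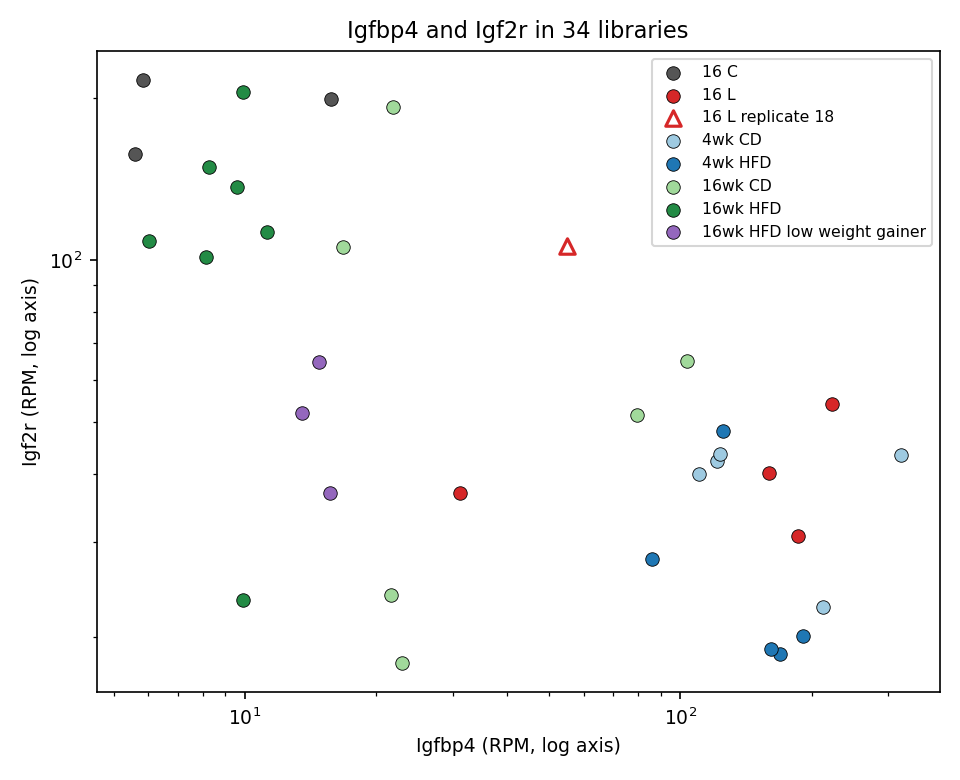
Igf2r against Igfbp4 in RPM (both axes logarithmic) for the 34 libraries, coloured by group; the open triangle is 16 L replicate 18. 16 C lies at the upper left (Igf2r 158 to 216 RPM) and the 4-week groups at the lower right (Igf2r at most 48.2 RPM).

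Other genes of the pathway came from a list of 50 ligands, receptors, binding proteins, proteases, adaptors and inhibitors at the receptor, and all 50 were entries of the table. In the leptin comparison 1 of 29 tested was called, Htra3, which encodes a secreted serine protease (log2 fold change 2.47, edgeR adjusted p = 0.0318), where 8.56% of all genes were. It was at 6.29 ± 2.42 RPM in 16 C and 66.2 ± 40.6 RPM in 16 L (78.1 ± 35.3 without replicate 18). Without replicate 18, 10 of 26 were called, 7 up and 3 down, against 41.8% of all genes. The 4 highest were Htra3 (2.56), the docking protein gene Gab2 (2.11), the adaptor gene Sh2b1 (1.67) and the phosphatase gene Ptpn1 (1.34). The 3 that fell were Ptpn2 (-1.40), Igfbp7 (-1.38) and Ide (-1.32), which encodes the insulin-degrading enzyme. Without any 1 library of 16 C, or without replicate 20, 21 or 23 of 16 L, 0 were called by edgeR, and without replicate 19 it called 5. In the low weight gainers against 16wk HFD, 10 of 30 were called, 6 up and 4 down, against 20.7% of all genes. That count was 2 with all 34 libraries in 1 fit, and 5, 4 and 1 without replicate 21, 22 and 23 of the low weight gainers. The 4 with the largest rise were Htra3 (1.67), the docking protein gene Dok1 (1.53), Stc2 (1.5), whose product inhibits PAPP-A, and Gigyf1 (1.16), which encodes a partner of the adaptor GRB10. The 4 that fell were the RNA-binding protein gene Igf2bp3 (-2.23), the ubiquitin ligase gene Cbl (-1.08), the adaptor gene Crk (-0.76) and Ptpn2 (-0.69), a tyrosine phosphatase gene. Stc2 stood at 7.31 ± 1.79 RPM there against 2.40 ± 1.17 RPM in 16wk HFD, beside Pappa at 2.12 ± 1.22 against 9.25 ± 4.72 RPM. The interaction called 2 of 31, Gigyf1 (1.83) and Dok1 (-2.20), against 3.66% of all genes. It called 0 with all 34 libraries in 1 fit and without replicates 1 and 2 of 16wk CD, and 0 to 4 with 1 library left out. In 4wk HFD (0 of 31), 16wk HFD (0 of 30) and the low weight gainers against 16wk CD (0 of 30), none was called with the main settings. Total count scaling gave 1 at 4 weeks and 7 at 16 weeks, all down, all 34 libraries in 1 fit gave 2 at 16 weeks, and DESeq2 gave 4, 2 and 3 in these comparisons. Leaving out replicate 11 of 4wk CD gave 3, and leaving out replicate 9 or 13 of 16wk CD gave 5 or 1 at 16 weeks. The median over the list was 0.25 after leptin, 0.17 at 4 weeks, -0.070 at 16 weeks and -0.0068 in the low weight gainers against 16wk HFD. Over all genes it was 0.27, -0.0099, -0.049 and -0.030. In the low weight gainers against 16wk CD the list stood at 0.11 (all genes -0.076), and in the interaction at -0.42 (all genes -0.086).

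Of the remaining binding proteins, Igfbp7 was at 10.9 ± 1.67 RPM in 16 C, 15.4 ± 16.5 in 16 L (8.12 ± 3.54 without replicate 18), 44.3 ± 38.9 in 4wk CD, 65.6 ± 16.7 in 4wk HFD, 25.1 ± 12.7 in 16wk CD, 11.5 ± 2.97 in 16wk HFD and 14 ± 0.194 in the low weight gainers. Igfbp3, the main carrier of IGF1 in serum, had 137 reads in all and was at 0 in 21 of 34 libraries, and its highest value, 11.5 RPM, was in replicate 18 of 16 L. The other libraries of 16 L had at most 0.482 RPM and those of 4wk HFD at most 2.46 RPM.

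The genes whose pattern was most like a member's were found by Pearson's r of log2 CPM (counts scaled to the normalized library total) over the 34 libraries after the group means were removed, among 13236 genes. These values are descriptions, since the libraries share depth and composition. Igf2r was most like Hsf2 (r = 0.934) and Kalrn (0.927), and these stood at 0.930 for both without replicate 18 of 16 L. Irs1 was most like its overlapping neighbour Gm9747 (0.951), and next Lrrc58 (0.740). Igf1r was most like Trerf1 (0.906), Igfbp5 Magi1 (0.864), Insr BC016423 (0.828), Igfbp4 Sphk2 (0.812), Igf1 Slc18a2 (0.810), Irs2 Lrdd (0.807), Pappa Zfp672 (0.793) and Igfbp2 Aamp (0.763). For Igf1 and Slc18a2, leaving out the 2 libraries with the most extreme Igf1 gave 0.512. The same step gave 0.594 for Irs2 with Lrdd and 0.624 for Irs1 with Lrrc58, and at least 0.730 for the other pairs named. Among the members themselves the highest values were 0.668 for Igf2r with Igfbp5 and 0.632 for Igf2r with Igf1, and the lowest was -0.554 for Insr with Igfbp2. Without replicate 18 of 16 L these were 0.618, 0.568 and -0.396, and the lowest was -0.517 for Igf1 with Igfbp2.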

How the data were processed

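CCs of 34 libraries, assigned to groups from GEO's labels, had been sequenced by the authors after oligo-dT Smart-seq2 and Nextera XT preparation, without molecular identifiers. The authors deposited 1 table of raw read counts per gene (GRCm38). The submitters' processing notes name Trim Galore 0.4.2 and HISAT2 2.0.5. The counting program, annotation and use of strand are not given in the sources used here. No 2 replicate columns were identical (72 pairs). The test for counts was the two-sided robust quasi-likelihood F-test of edgeR 4.0.16 under R 4.3.3 (scaling by TMM, low counts removed by filterByExpr) on the libraries of each comparison. A gene was called at a Benjamini-Hochberg adjusted p of 0.05 or less over all genes tested, and the SE was the log2 fold change over the square root of F. Alternatives were RLE and total count scaling, DESeq2 1.42.0, no filter, all libraries in 1 fit, a replicate block and leaving out each library. Exon lengths came from GENCODE. Intervals for counts of 0 cover counting error only. Members and lists were chosen with earlier results of these data known. The 10 members were named whatever their values, the other pathway genes if called (at most 4 per direction and comparison), beside Ins1, Ins2, Igf2, Igfbp3 and Igfbp7, and the 2 most alike genes per member were computed. Code was tested on simulated data.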

Additional observations from a re-analysis of the deposited data

Results flagged for a closer look

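Among the 50 sets of 5 to 7 libraries of 1 member and group, 5 had a library far from the rest. The rule flags about 1 in 20 sets of independent, normally distributed values. Members share libraries, so the sets are not independent and that rate may not hold here. In 3 of the 5 sets flagged, the library was replicate 18 of 16 L. It had Igfbp5 at 672 RPM (other libraries 12.1 to 40.7), Irs1 at 196 RPM (60.1 to 94.2) and Igf1r at 6.56 RPM (40.6 to 54.3). Igf2r was low in replicate 2 of 4wk CD, at 22.7 RPM against 40.1 to 43.7. Irs1 was high in replicate 16 of 16wk HFD, at 91.3 RPM against 23.7 to 50.6. The effect of HFD on Igfbp4 differed between 16 and 4 weeks by -1.55 on the log2 scale (edgeR interaction adjusted p = 0.0496).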

How the results depend on the processing

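Members called were 1 at 4 weeks with total count scaling and with DESeq2 (0 in the main analysis). At 16 weeks 1 was called with total count scaling, DESeq2 and no filter, and 2 with all 34 libraries (0). In the low weight gainers against 16wk HFD it was 1 with total count scaling, 3 with DESeq2 and 0 with all 34 libraries (2), and after leptin 3 with all 34 libraries (2). In the interaction it was 2 with total count scaling and DESeq2, and 0 with all 34 libraries, with a replicate block and without replicates 1 and 2 of 16wk CD, a setting chosen after seeing the data (1). Leaving out each library gave 0 to 3 after leptin, 0 to 2 at 16 weeks, 0 to 4 in the low weight gainers against 16wk HFD and 0 to 3 in the interaction. After leptin, total count scaling reversed Igfbp2 (0.59), Igf1r (0.46), Insr (0.58) and Igf1 (0.37), and leaving out 1 library gave ranges across 0 for Igfbp2 (-0.87 to 0.43), Igfbp5 (-0.0050 to 3.99), Irs1 (-0.50 to 0.43) and Igf1 (-1.18 to 0.0080). The cause was not tested.

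Over all genes, calls after leptin were 1004 in the main analysis, 4035 with total count scaling, 2629 with DESeq2, 504 with no filter and 4384 with all 34 libraries, and 30 to 4635 with 1 library left out (lowest without 16 C replicate 1, highest without 16 L replicate 18). At 4 weeks they were 499, with 1291 by DESeq2, 69 with all 34 libraries and 8 to 1700 with 1 library left out. At 16 weeks they were 3, with 1646 by total count scaling, 1056 by DESeq2, 13 with no filter, 1258 with all 34 libraries and 1 to 2222 with 1 library left out, and total count scaling split them into 55 up and 1591 down. The low weight gainers had 2330 against 16wk HFD, 487 with all 34 libraries and 596 (without their replicate 23) to 2732 with 1 library left out, and total count scaling gave 1585 up and 598 down. Against 16wk CD they had 1, with 0 by total count scaling, 250 by DESeq2, 7 with all 34 libraries and 3 without replicates 1 and 2 of 16wk CD. The interaction had 448, with 873 by total count scaling (187 up and 686 down), 1165 by DESeq2, 157 with all 34 libraries, 10 with the block, 89 without those replicates and 69 (without 4wk HFD replicate 5) to 1685 (without 16wk CD replicate 9) with 1 library left out. Total count scaling moved the median over all genes, on the log2 scale, from -0.0099 to -0.13 at 4 weeks, from -0.049 to -0.40 at 16 weeks, from -0.030 to 0.14 and from -0.076 to -0.28 in the low weight gainers against HFD and CD, and from -0.086 to -0.39 in the interaction.

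Diet groups share replicate numbers only in the interaction. Deviations of same-numbered libraries at 4 and 16 weeks correlated at -0.227, -0.0365 and -0.200 in CD and 0.0955 in HFD, so the numbers pair no samples. The replicate block reversed Insr there (-0.080). Depth limits Irs2, at 0 reads in 4 libraries, where 3 reads are worth 0.720 to 2.26 RPM.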
